A study of Gallus gallus with 3 samples.

Results

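The SOX transcription factors share a DNA-binding domain, the HMG box, and fall into groups by sequence. Of the 8 chicken genes of groups B and C sought by symbol (SOX1, SOX2, SOX3, SOX14, SOX21, SOX4, SOX11 and SOX12), 3 were matched among the 15916 genes of the expression table. They were SOX2 of group B1, SOX14 of group B2 and SOX11 of group C. The other members are not analysed here, and 2699 genes of the table had no symbol. The samples were spinal neural tubes of wild-type chicken embryos (White Leghorn strain), with 2 libraries from stage HH14 and 1 from stage HH19 of the Hamburger-Hamilton series, dissected at brachial level and further caudally. Each library pooled tissue of about 25 embryos, so it averages over animals and over all cell types of the tube, and the label of the HH19 library repeats the dissection text of HH14.

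Group B1 factors keep neural progenitors undifferentiated and are expressed in the dividing cells of the neural tube from its formation on. Group B2 factors, SOX14 and SOX21, act mainly as repressors, and SOX14 also marks some interneurons of the ventral spinal cord. Group C factors, SOX4 and SOX11, are found mostly in cells that leave the cycle, where they help to switch on neuronal genes such as that of the neuronal beta tubulin. The question here was how these genes differ between the earlier tube and the later one. The share of progenitors and neurons at each stage was not measured.

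Expression was given in TPM, each gene's part of all transcripts after division by its length, with 1 column for both HH14 libraries and 1 for HH19. The HH14 values are therefore the authors' single values, and no test could be run on the deposited columns. The 11097 genes whose TPM averaged 1 or more over the 3 libraries were tested for size. The call of a gene as higher or lower at HH19 needed a difference of 1 or more in log2(TPM + 1). That is 2-fold in TPM + 1, so a gene of few TPM needed more than 2-fold in TPM itself. By that rule 3.93% of the tested genes were higher and 1.38% lower, and the median log2 difference of all of them was 0.05. In bulk tissue, a change in the number of cells that express a gene and a change in its RNA per cell cannot be told apart.

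The deposited values carry enough digits to give back the whole reads behind them, and so a value for each HH14 library. Each value is a whole number of reads, with 1 read added, times a constant, divided by a whole length. This held to the last digit for 12856 genes (80.8%), 8055 of them tested. The TPM levels given for the 2 HH14 libraries further assume that the HH14 value is their plain mean, which the sources used here do not state. The libraries cannot be matched to the replicate numbers of the labels and are called A and B. At the same length, 1 read stood for 1.28 times as much TPM in A as in B, the deeper library. The recovered genes held at least 5812314 reads in library A, 7166763 in library B and 6616542 at HH19. Of the 8055 genes, 7.91% differed by 1 or more in log2(TPM + 1) between libraries A and B.

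SOX2, a group B1 factor, was the most abundant of the 3 genes at both stages and hardly differed between them. Its TPM was 178 at HH14 and 185 at HH19. The HH19 value was 1.04 times the HH14 value, with a log2 difference of 0.06, about that of the median gene. SOX2 (ENSGALG00000008848) was at rank 801 of all genes at HH14 and at rank 745 at HH19, where 95.3% of the table lay at or below it.

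The HH14 libraries were also close to each other in SOX2. The whole-read solution gave SOX2 a TPM of 178 in library A (3144 reads) and of 177 in library B (4001 reads), against 3443 reads at HH19. The HH19 value lay above both, but only 1.04-fold above A and 1.05-fold above B. This solution is less firm than those of the other genes, since 0.133 solutions would arise by chance over the lengths searched, against a limit of 0.01 for the recovered genes. At a chance limit of 0.2, limma's test over 10447 genes gave SOX2 a log2 difference of 0.06 ± 0.31 (SE, 2 HH14 libraries against 1 HH19 library) with an adjusted p of 1.00. That SE is several times the difference itself, so the test cannot show that SOX2 was equal at both stages.

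SOX11, the group C gene, was nearly 2-fold higher at HH19. Its TPM was 53.1 at HH14 and 101 at HH19, a ratio of 1.91. The log2 difference was 0.92, just short of the size rule. It moved from rank 2803 to rank 1498 of all genes. Only 4.88% of the tested genes (542 genes) had a difference at least as large toward HH19.

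The HH19 value of SOX11 (ENSGALG00000016397) lay above both HH14 libraries. Library A had 58.2 TPM (1288 reads), library B 48.0 TPM (1362 reads) and HH19 101 TPM (2367 reads). The 2 HH14 libraries, at 53.1 ± 7.18 TPM (SD, n = 2), were 1.21-fold apart. That is closer than most recovered genes: 59.9% of recovered tested genes were at least as far apart. Many abundant genes, VIM and STMN1 among them, were not recovered, so this set was not matched to SOX11 in level. The exact Poisson 95% intervals, which cover counting error only, were 1219 to 1360 reads in A, 1291 to 1436 reads in B and 2273 to 2464 reads at HH19. They hold for the smallest solution and for libraries of unequal depth, so they do not compare levels. Against library B alone SOX11 was 2.11-fold higher (log2 difference 1.06) and met the size rule, as did 4.1% of recovered genes, while 0.782% met it toward HH14. Against library A alone it was 1.74-fold higher (0.79) and did not, where 10.3% of recovered genes were higher by the rule and 3.95% lower.

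**Figure D1:**
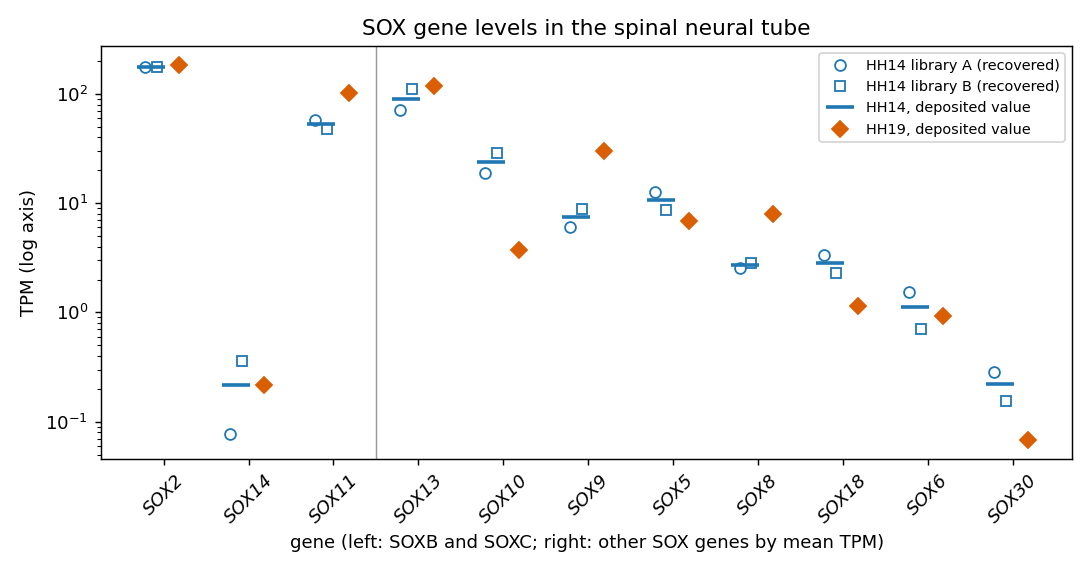
TPM (log axis) of the 3 SOXB and SOXC genes and of the 8 other SOX genes in the table. Open symbols are the HH14 libraries A and B from whole reads, bars the deposited HH14 value and diamonds HH19. The library values of SOX2, SOX5 and SOX13 missed the chance limit of 0.01 and are less firm. SOX2 stays near 180 TPM, SOX11 lies at 48.0 and 58.2 TPM in the HH14 libraries and at 101 TPM at HH19, and SOX14 is below 1 TPM throughout.

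A test that uses the spread between the HH14 libraries, taken mostly from other genes of like level, did not call SOX11. limma with an intensity trend over the 8055 recovered genes gave a log2 difference of 0.93 ± 0.35 (SE, 2 libraries against 1) and a Benjamini-Hochberg adjusted p of 0.344. The same limma test called 50 genes higher (0.621%) and 8 lower (0.0993%). It assumes that the lone HH19 library varies like the HH14 libraries, and the labels do not say whether the pools came from separate batches of eggs. The p-values therefore cover no more than how much these libraries differ.

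SOX14, the group B2 gene, was close to absent at both stages. Its TPM was 0.217 at HH14 and 0.218 at HH19, at rank 13534 and rank 13647, and its mean of 0.218 TPM kept it out of the tested genes. The smallest whole-read solution gave SOX14 (ENSGALG00000017372) 0 reads in library A, 5 in library B and 2 at HH19. Library A stands at 0.0765 TPM, in that solution from the added read alone, and library B at 0.358 TPM. The exact Poisson 95% intervals were 1.62 to 11.7 reads for B and 0.242 to 7.22 reads for HH19, and 0 to 3.69 reads for A. These ranges overlap, but they hold for the smallest solution only and for libraries of unequal depth. Whether SOX14 differed between libraries or stages was not tested.

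The order of the levels was the same in every library: SOX2 above SOX11 and SOX11 above SOX14. The distance between SOX2 and SOX11 narrowed. SOX2 had 3.35 times the TPM of SOX11 at HH14 and 1.83 times at HH19. Between the HH14 libraries the ratio was 3.07 in A and 3.69 in B, so both lay above the HH19 ratio. These library ratios use the less firm library values of SOX2. Whether the ratio differed between the stages was not tested.

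**Figure D2:**
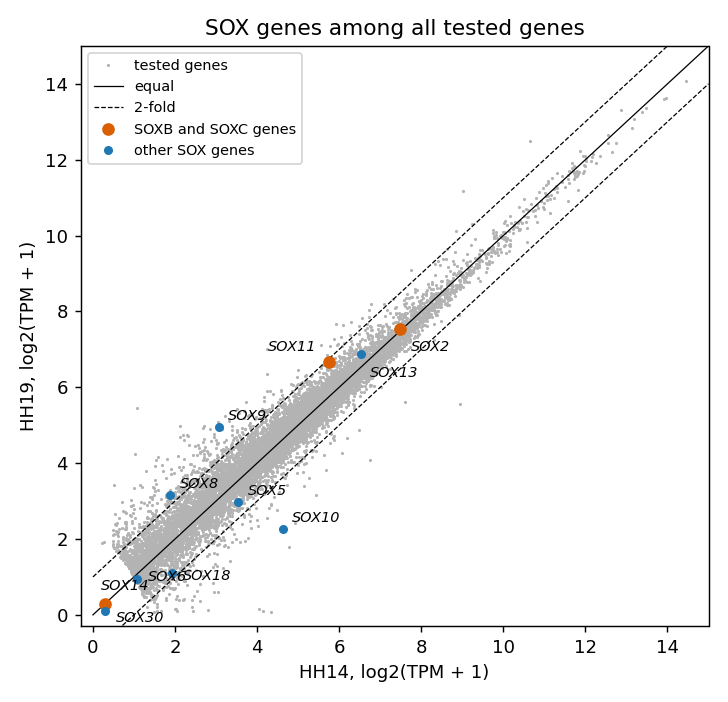
HH19 against HH14, both as log2(TPM + 1), for the 11097 tested genes (grey), the SOXB and SOXC genes (orange) and the other SOX genes (blue). SOX2 lies on the line of equal values (difference 0.06), SOX11 just inside the upper 2-fold line (0.92), and SOX9, SOX8 and SOX10 lie outside the 2-fold lines.

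The other SOX genes in the table are mostly linked to glia, neural crest, cartilage and vessels. Of 8 matched, 7 were tested, with 2 higher (SOX9 and SOX8) and 1 lower (SOX10), against 3.93% and 1.38% of all tested genes. Their median log2 difference was -0.14. Over the 5 with recovered values the median was -0.40 against library A and 0.17 against library B. SOX9, a factor of gliogenic progenitors and crest, was at 6.03 TPM in HH14 library A, at 8.86 in B and at 29.9 at HH19. SOX10, of migrating crest and glia, was at 18.7 TPM in A, at 28.8 in B and at 3.76 at HH19. It was the SOX gene that limma called (log2 difference -2.35 ± 0.50 SE, adjusted p = 0.015), while SOX9 had an adjusted p of 0.0731 and SOX8 of 0.436 in limma's test. SOX13, a group D factor and the most abundant of these, was at 70.8 TPM in A, at 111 in B and at 117 at HH19, where its library values had 0.0202 solutions by chance. SOX5 and SOX6, also of group D, had 10.7 and 6.90 TPM and 1.12 and 0.92 TPM at HH14 and HH19. SOX18, of endothelium, had 2.82 and 1.15 TPM. SOX30 was below the filter, with 0.22 and 0.0681 TPM.

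SOX2 differed less between the stages than 16 of the 19 tested neural progenitor genes listed with it. Of these 19 genes, 1 was higher and 0 lower, against 3.93% and 1.38% of all tested genes. Of the 19, 18 lay above their HH14 value, with a median log2 difference of 0.45 (0.05 over all tested genes). Only 2 of the 19 had recovered values, and their median was 1.43 against library A and 0.57 against library B. LFNG, a modulator of Notch signalling, was at 341 TPM and 645 TPM at HH14 and HH19 (0.92). Its less firm library values (0.0335 solutions by chance) were 263 TPM in A and 419 TPM in B, with a difference of 0.62 against B. ZIC1, a zinc finger factor of the dorsal tube, had 28.4 and 59.2 TPM (1.03), and VIM, the intermediate filament of radial progenitors, 1455 and 1987 TPM (0.45). ZIC1 was at 22.1 TPM in A and at 34.7 in B, and against B alone it was no longer 2-fold higher (0.75). Of all tested genes, 13.1% were as close between the stages as SOX2 was. POU2F1, the 1 matched gene among 6 listed POU factors, which bind DNA together with group B1 factors, had 7.91 and 5.74 TPM (-0.40), with 12.2 TPM in A and 3.61 in B, so that it lay below A but above B at HH19.

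Of 20 tested neuronal genes 13 were higher at HH19 and 0 lower, with a median log2 difference of 1.18, above the 0.92 of SOX11. Over all tested genes 3.93% were higher and 1.38% lower. SCRT2, a repressor made in newborn neurons, was at 3.38 TPM and 30.5 TPM at HH14 and HH19 (2.84). STMN2, which regulates microtubules in growing axons, had 17.9 and 127 TPM (2.76). STMN1, a related gene that progenitors express too, had 3407 and 3662 TPM (0.10).

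SOX11 and most of the neuronal genes differed in opposite directions between the HH14 libraries. Of 15 neuronal genes with recovered values, 12 were higher in library B than in library A, with a median log2 difference of 0.92 over the 15. Over all recovered tested genes that median was -0.04. The other 3 neuronal genes were lower in B, as SOX11 was: DCX (-1.64), SYT1 (-0.26) and ELAVL4 (-0.21). STMN2 was at 8.46 TPM in A and at 27.4 in B, and SCRT2 at 1.14 and 5.63 TPM. SOX11 was instead lower in B, with a log2 difference of -0.27, and SOX2 was about equal, at -0.0098 in its less firm values. Of recovered tested genes, 59.9% were at least as far apart between A and B as SOX11. All 15 recovered neuronal genes lay above library B at HH19 and 14 of them above library A. Over all recovered tested genes the median log2 difference at HH19 was 0.10 against A and 0.17 against B. By the size rule 10.3% of all recovered genes were higher against library A and 4.1% against library B. Of the 15 neuronal genes, 10 were higher against library A (median 1.60) and 8 against library B (median 1.04). SOX11 was therefore below the neuronal median against A, at 0.79, but about at it against B, at 1.06. The difference between SOX11 and the neuronal genes within HH14 rests on 1 library each way and was not tested.

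**Figure D3:**
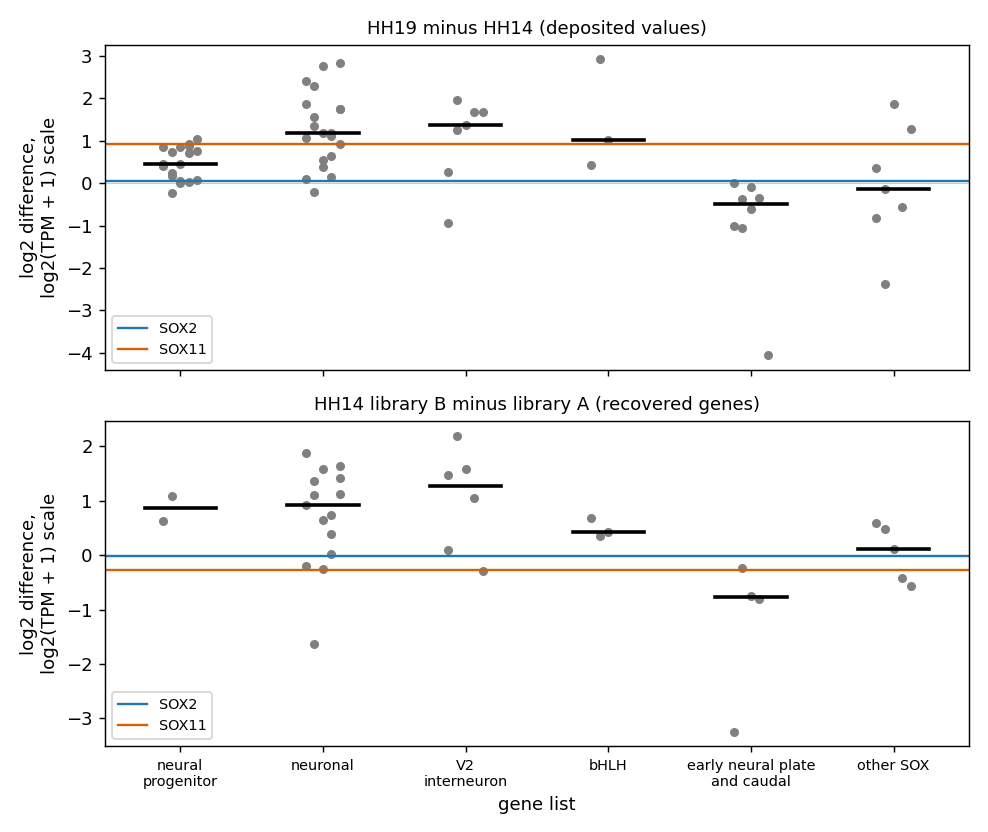
Log2 differences on the log2(TPM + 1) scale for the genes of 6 lists (grey points, black bars for the medians), with SOX2 (blue line) and SOX11 (orange line). Above, HH19 minus HH14: SOX11 at 0.92 lies over the progenitor median of 0.45 and under the neuronal median of 1.18; below, HH14 library B minus A: SOX11 at -0.27 lies under the neuronal median of 0.92.

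For SOX14 the listed genes of V2 interneurons, a ventral class, give a comparison. Of 7 tested, 5 were higher at HH19 and 0 lower (3.93% and 1.38% of all tested genes), with a median of 1.38. That size depends on the HH14 library. Over the 6 with recovered values the median was 2.50 against library A, with 5 higher, and 1.16 against library B, with 4 higher. Of all recovered genes, 10.3% were higher against A and 4.1% against B. LHX4, a LIM homeodomain factor, was at 1.58 TPM in A, at 10.8 in B and at 17.8 at HH19. LHX1, a LIM homeodomain factor of several interneuron classes, had 4.65 and 21.0 TPM at HH14 and HH19, with 1.98 TPM in A and 7.31 in B, and VSX1, a homeodomain factor of the V2 domain, 3.41 and 13.2 TPM. LMO4, a LIM-only cofactor, had 33.2 and 16.8 TPM (-0.94). Of 3 tested proneural and neuronal bHLH genes 2 were higher and 0 lower (median 1.03). They were PTF1A (0.424 and 9.76 TPM), which sets inhibitory interneuron fate in the dorsal cord, and NEUROD1 (0.667 and 2.40 TPM). Against library B alone 1 was higher, PTF1A, since NEUROD1 was at 0.83. OLIG3, of dorsal progenitors, had 48.4 and 65.1 TPM.

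Genes of the early neural plate and caudal epiblast, the tissue that feeds the tube at its tail end and in which group B1 factors also act, were below their HH14 value in every tested case. Of 8 tested 0 were higher and 3 lower (3.93% and 1.38% of all tested genes), with a median log2 difference of -0.48. The gene T was about equal, at 5.72 and 5.70 TPM, and lay above library B at HH19 (0.12). CDX4, a caudal homeobox factor, had 31.2 TPM in HH14 library A, 2.41 TPM in B and 0.0707 TPM at HH19. CDX2 had 3.42, 1.64 and 0.687 TPM in the same order. LIN28A, an RNA-binding protein of early cells, was at 129 TPM and 63.7 TPM at HH14 and HH19. Its less firm library values (0.081 solutions by chance) were 171 TPM in A and 87.6 TPM in B. The 4 tested genes of this list with recovered values were all higher in library A than in library B, while SOX2 was about equal in both. Their median log2 difference of B minus A was -0.77. Over all recovered tested genes it was -0.04, so more of those were higher in A than in B too. With genes below the filter, 6 of all 8 with recovered values were higher in A. The added genes rest on few reads, such as 9 in A and 1 in B for CDX1. Over the 4 the median was -1.17 against library A, with 2 lower, and -0.40 against library B, with 1 lower (CDX4). CDX2 missed the rule against B, though at HH19 it had 0.418 of its TPM in B. Of all recovered genes, 3.95% were lower against A and 0.782% against B.

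Some markers of tissues next to the tube differed between the stages too, but not in every list. Over all tested genes 3.93% were higher and 1.38% lower. Of recovered genes, 10.3% were higher and 3.95% lower against library A, and 4.1% and 0.782% against library B. Neural crest markers summed to 83.0 TPM and 38.0 TPM at HH14 and HH19 over 7 genes, with 2 higher and 4 lower of 7 tested (1 higher and 4 lower against library B alone). Surface ectoderm and placode markers summed to 151 and 111 TPM over 10 genes, with 0 higher and 3 lower of 8. Over the 9 of them with recovered values the sum was 120 TPM in library A, 76.1 TPM in library B and 61.0 TPM at HH19. Of 7 tested and recovered, 4 were lower against A (median -1.13) and 1 against B (median -0.31), the latter being DLX5. WNT6 and EYA1 missed the rule against B, though at HH19 they had 0.367 and 0.323 of their TPM in B. Of the 7, 2 lay above B. Endoderm and lateral plate markers summed to 13.9 and 3.12 TPM over 5 genes, with 0 higher and 2 lower of 2 tested. Most of that difference came from library A, where these 5 genes summed to 23.3 TPM, against 4.56 TPM in library B. Against B alone 0 of the 2 were lower by the size rule, with APOA1 at -0.10 and HAND1 at -0.57. HAND1 was at 0.601 TPM in B and 0.0812 TPM at HH19, 0.135 of the B value. Both are below 1 TPM, where the pseudocount makes the log2 difference small. Mesoderm markers summed to 54.8 and 26.3 TPM over 9 genes (0 higher and 1 lower of 4). The lower sum at HH19 came from 1 gene, TNNC1, which gave 48.9 and 17.7 TPM. The median of the 4 tested was -0.03, and 2 of them lay above their HH14 value. Notochord markers summed to 95.6 and 126 TPM over 3 genes (0 higher or lower of 3), mostly from SHH, which the floor plate also makes, and blood and endothelium markers to 37.0 and 47.1 TPM over 8 genes (1 higher and 0 lower of 5, and 0 higher against library B alone). The part of these tissues in the SOX values was not tested.

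The genes with the pair of stage values most like that of SOX2, by distance on the log2(TPM + 1) scale over the 2 columns, were MRPL3 (180 and 181 TPM, distance 0.04) and CCDC12 (183 TPM at both stages, distance 0.044). For SOX11 they were KLHL25 (54.2 and 100.2 TPM, distance 0.035) and PTPRZ1 (55.9 and 103 TPM, distance 0.076). With 2 values per gene, such likeness is a description only.

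The counting itself sets limits for these genes. The smallest lengths that fit the whole reads were 948 bases for SOX2, 1191 for SOX11 and 702 for SOX14. Each is a multiple of 3, as a coding length is, but true lengths may be multiples of these. The read numbers would then be larger, and SOX14 would have reads in library A too, while the TPM values stay the same. In the RefSeq annotation of the GRCg7b assembly, SOX2 overlaps a long noncoding RNA gene (LOC107054087), and SOX11 and SOX14 overlap no other gene. Overlap was judged by gene start and end and not by exons. Whether the counting used strand is not given in the sources used here. Whether reads of that RNA entered the SOX2 value was not tested.

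**Figure D4:**
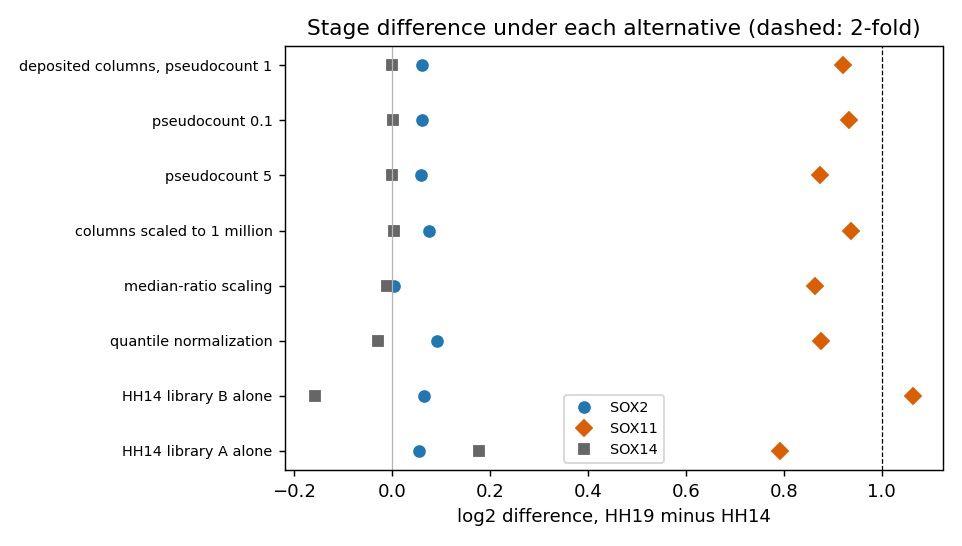
Log2 difference, HH19 minus HH14, of SOX2, SOX11 and SOX14 under each alternative way of computing it, with the 2-fold line dashed. SOX11 lies between 0.79 and 1.06 and passes 2-fold only against HH14 library B alone, SOX2 stays between 0.0034 and 0.092, and SOX14 lies on both sides of 0.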

How the data were processed

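The authors deposited TPM values for polyadenylated RNA, 1 row per Ensembl gene and 1 column per stage. The submitters' processing notes name the galGal4 build with TopHat2, SAMtools, FastQC and DESeq2. For what each was used, in which version, how reads were counted and how the HH14 libraries were joined is not given in the sources used here. Members were matched by symbol, and a symbol on several rows in the lists was taken from its most abundant row. Members, lists and alternatives were chosen with earlier results of these data known.

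The planned limma test needed 1 column per library, so genes were described by size, as log2(TPM + 1) with a pseudocount of 1. Named were all SOX genes, in each list the 2 members with the largest difference and the most abundant one, and the 2 genes nearest to each tested member; not all are printed.

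Whole reads were searched over lengths of up to 12000 bases, using that values are kept to 10 significant digits and at most 9 decimals. In 1426 genes without a read the ratio of the columns was 1.07. Library A gave 56.2% of the HH14 value of 1 read. A gene was kept when 1 solution existed and at most 0.01 were expected by chance. With a deliberately wrong scale, in 3 runs, 48.7 genes were recovered on average (0.379% of 12856). This step and limma on its values were added after the data were seen. The columns summed to 957154 and 946462 TPM. Steps were tested on simulated data. The tools were limma 3.58.1 in R 4.3.3, and numba 0.67.0, scipy 1.17.1, pandas 2.3.3, numpy 2.4.6 and matplotlib 3.10.9 in Python 3.11.15.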

Additional observations from a re-analysis of the deposited data

How the results depend on the processing

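SOX11 stayed above its HH14 value under every alternative run, with log2 differences from 0.79 (without library B) to 1.06 (without library A), and 1 SOXB or SOXC gene, SOX11, met the size rule when library A was left out and 0 when library B was. SOX2 ranged from 0.06 to 0.07 when each HH14 library was left out, by its whole-read solution that missed the chance limit. It was 0.076 with both columns scaled to the same sum, 0.0034 after median-ratio scaling and 0.092 after quantile normalization. SOX14, below the filter on mean TPM, ranged from -0.16 to 0.18 without 1 HH14 library. Over all genes, 651 were higher and 279 lower at a pseudocount of 0.1, 149 higher and 46 lower at 5, and 261 higher and 85 lower with the limit on mean TPM raised to 5, against 436 and 153. Quantile normalization gave 302 higher and 217 lower, so that 58.2% of called genes were higher and not 74.0%. For counts over many genes, leaving out 1 HH14 library was done on the 8055 recovered tested genes only. It gave 330 to 829 higher and 63 to 318 lower. The median log2 difference of this smaller set was then 0.10 to 0.17. On the same set, both HH14 libraries together gave counts of 416 and 138, and a median of 0.11. limma called 50 higher and 8 lower. The cause of these shifts was not tested. No paired analysis was possible because HH19 has 1 library. With 1 HH19 library, the spread at that stage is unknown.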
